A study of Mus musculus with 4 samples.

Results

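The genes of the cytosolic ribosomal proteins were followed in neurospheres, floating cultures of neural stem and progenitor cells, from the ventral telencephalon of E12.5 mouse embryos. Members were the probe sets of the Affymetrix MOE430A and MOE430B arrays annotated to 1 symbol that starts with Rpl or Rps and a number, or with Rplp, or is Rpsa, with Rps6k kinases and pseudogene symbols left out. This gave 106 probe sets of 50 genes, out of 18193 genes with a single-symbol probe set on either array. Of the members, 100 probe sets were on MOE430A and 6 on MOE430B. RefSeq holds 89 protein-coding symbols that match the same pattern, and 40 of these are not members. For 31 of the 40, the arrays carry probe sets that list the symbol together with others, so that no gene can be named from them.

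The groups were 1 wild-type RNA sample and 1 RNA sample from neurospheres labelled E2f4 knockout, each hybridised to 1 MOE430A and 1 MOE430B array. E2F4 belongs to the E2F transcription factors and, bound to pocket proteins, represses genes of the cell cycle, and the labels give the pathways affected by its loss as the question. The knockout allele, the strain and the number of embryos behind each culture are not given in the sources used here. With 1 sample per genotype there is no replicate and no test, so a difference below is one between these 2 samples and was not shown to be one between genotypes. E2f4 itself had a MAS5 signal, the array software's summary of a probe set on a linear scale, of 1812 in wild-type and 1535 in knockout neurospheres. Where its 1 probe set lies relative to the deletion was not known here, so this log2 ratio of -0.25 does not check the label.

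Each cytosolic ribosome holds a large and a small subunit, built from ribosomal RNA and one copy of most ribosomal proteins. The acidic stalk proteins of the large subunit recruit elongation factors. Ribosomal protein mRNAs are among the most abundant in dividing cells, and most start with a run of pyrimidines, the 5′ terminal oligopyrimidine tract, through which growth signals control their translation. Several ribosomal proteins also act outside the ribosome, such as RPL11, which binds MDM2 when ribosome assembly is disturbed. Neural progenitors of the embryonic forebrain, which divide fast, make many ribosomes.

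The start sites of 7 members are shown because they hold, or lack, the pyrimidine run that the family is known for, and because their gene values, log2 ratios described below, run from -0.18 in Rpl39 to 1.12 in Rps27. Each is 60 bases of RefSeq sequence of the mouse assembly GRCm38.p6, 30 before the annotated start and 30 from it on, 5′ to 3′ on the gene's strand. Capitals mark the longest run of C and T. The sequences are those of Rps27 (chr3:90213619-90213678, minus strand), Rps10 (chr17:27635215-27635274, minus strand), Rpl35 (chr2:39005102-39005161, minus strand), Rpl22 (chr4:152324406-152324465, plus strand), Rps6 (chr4:86857338-86857397, minus strand), Rpl7a (chr2:26910777-26910836, plus strand) and Rpl39 (chrX:37085193-37085252, minus strand).
Rps27: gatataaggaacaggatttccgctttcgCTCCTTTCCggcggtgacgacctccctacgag
Rps10: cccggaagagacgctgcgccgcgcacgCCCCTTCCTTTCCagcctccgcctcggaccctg
Rpl35: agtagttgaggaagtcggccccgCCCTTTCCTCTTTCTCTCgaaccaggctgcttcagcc
Rpl22: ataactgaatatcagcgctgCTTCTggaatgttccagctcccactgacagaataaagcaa
Rps6: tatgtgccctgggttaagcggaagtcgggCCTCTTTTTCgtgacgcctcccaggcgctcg
Rpl7a: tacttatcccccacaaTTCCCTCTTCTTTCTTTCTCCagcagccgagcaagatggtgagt
Rpl39: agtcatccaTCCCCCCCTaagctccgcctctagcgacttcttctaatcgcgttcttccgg

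The run was 9 bases long in Rps27, 13 in Rps10, 18 in Rpl35, 10 in Rps6 and 21 in Rpl7a, and 5 in Rpl22, of which the first of 2 annotated starts is shown. In Rpl39 it was 9 bases long and ended before the annotated start. RefSeq start windows were found for 44 of the 50 genes, 52 windows in all. A run of at least 7 pyrimidines on the gene's strand lay within 30 bases of the start in 32 of the 52. This was 61.5%, against 33.8% of all 32851 windows. The run could lie on either side of the start, so this does not count tracts at the first base. Of the members shown with long runs, Rps10 and Rpl35 had gene values of 0.30 and 0.27 on the log2 scale. Rps6 and Rpl7a, with runs of 10 and 21 bases, had values of 0.03 and -0.004. Whether the ratios go with the run was not tested.

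Letters of binding motifs were searched on both strands of the same windows, from 250 bases before the start to 50 after it. Any of TTTGGCGC, TTTCGCGC, TTTCCCGC and GCGGGAA, letters that E2F factors bind, were in 7 of 52 windows, or 13.5%, against 5.33% of all windows, and the last of these overlaps the third on its other strand. The members with such letters were Rpl7a, Rps3a1, Rps10, Rps16, Rps19 and Rpsa. Their gene values, the log2 ratios described next, were -0.004 for Rpl7a, 0.01 for Rps3a1, 0.30 for Rps10, 0.21 for Rps19 and -0.02 for Rpsa, and Rps16 was below the detection floor. The ETS letters CCGGAAGT were in 10 windows, 19.2% against 3.89% of all, and the YY1 letters AAGATGGCG in 3, 5.77% against 1.40%. The NRF1 letters CGCATGCG were in 2, 3.85% against 1.87%, and TATAAA in 6, 11.5% against 13.6%. A match to letters is not a shown binding site.

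Ribosomal protein probe sets were slightly higher in knockout than in wild-type neurospheres on MOE430A, and MOE430B held few of them. Ratios are given as log2 of knockout over wild type, centred on the median of all probe sets of the array design. The detection floor was set at each design's median signal, 736 on MOE430A and 942 on MOE430B, and measured probe sets reached it on both arrays. Of the 106 member probe sets 87 were measured, 2 (Rpl14 and Rps9) reached it only on the knockout array, 1 (Rps24) only on the wild-type array, and 16 on neither. Probe sets that end in _at are designed for a single transcript, while those that end in _x_at, _s_at or _a_at can match several transcripts or a gene family, so the kinds are kept apart.

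On MOE430A, 10 of 15 measured _at probe sets of the members were higher in knockout neurospheres, with a median of 0.11 and a range from -0.29 to 1.12. Of all 10399 measured probe sets on that array, 47.9% were higher, with a median of -0.01. Of the 67 measured _x_at, _s_at and _a_at probe sets of the members, 60 were higher, with a median of 0.14 and a range from -0.64 to 0.92. The sizes were small: the gene value of Rps19, at 0.21, corresponds to 1.16-fold. On MOE430B, 3 of 4 measured _at probe sets were higher, with a median of 0.11, and the 1 measured _s_at probe set, of Rpl22, was at 0.13; 50.2% of all measured probe sets there were higher. That _s_at value was -0.06 after quantile normalization, while the other medians stayed above 0 in every alternative run. The measured _at probe sets on MOE430B were of Rps3, at 0.50 and -0.03, Rpl7l1, at 0.21, and Rps19bp1, at 0.01. Rpl7l1 and Rps19bp1 are not standard subunits.

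**Figure D1:**
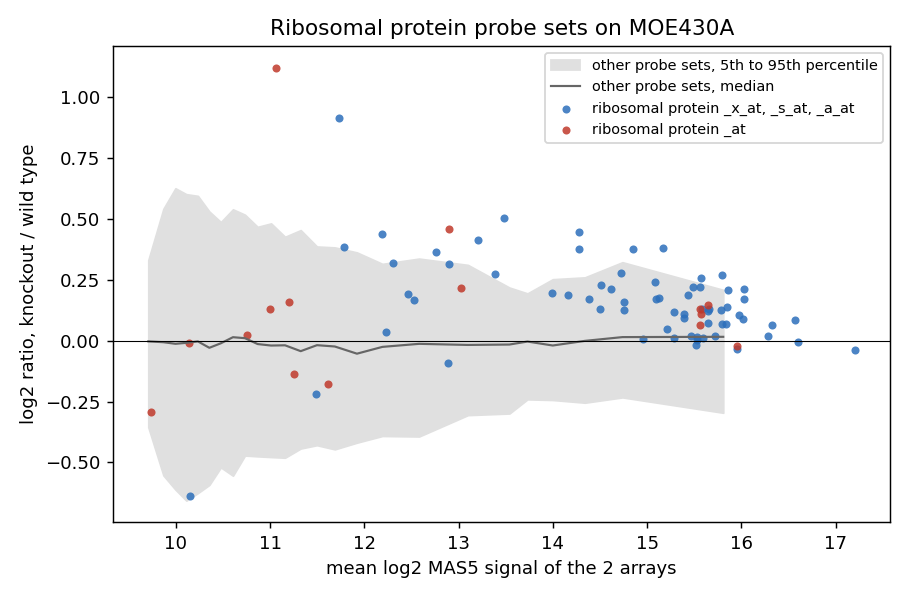
Log2 ratio of knockout over wild type against the mean log2 MAS5 signal of both MOE430A arrays, for the 82 measured ribosomal protein probe sets, with _at probe sets in red and _x_at, _s_at and _a_at ones in blue. The grey band is the 5th to 95th percentile and the grey line the median of the other measured probe sets in bins of signal, without those annotated to several symbols with a ribosomal name; most members lie at high signal and above the line, and the widest scatter is at low signal.

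Most members were among the brightest probe sets, where on MOE430A the ratios of other probe sets spread least. Of the 106 member probe sets, 74 were in the top 10% of signals of their design, and they covered 39 of the 50 genes. On MOE430A 70 were, and 64 of them were higher in knockout neurospheres, with a median of 0.13, quartiles of 0.07 and 0.22 and an SD over probe sets of 0.13. Of 2117 other probe sets in the top 10%, 47.2% were higher, with a median of -0.01, quartiles of -0.12 and 0.10 and an SD of 0.21. Among the 12 measured members below the top 10%, 6 were higher and 6 lower, with a median of 0.01 and a range from -0.64 to 1.12. The difference between bright and dim members was not tested.

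The difference in medians was smaller among the brightest 1% of probe sets on MOE430A, a cut chosen after the values were seen. There 44 of 49 members were higher, with a median of 0.11, while 56.0% of 125 other probe sets were higher, with a median of 0.02. Probe sets of 1 gene, and those of genes with like sequence, can share labelled RNA, so these counts are not counts of independent measurements. The members' upper quartile in this class was 0.17 and that of the other probe sets 0.08.

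**Figure D2:**
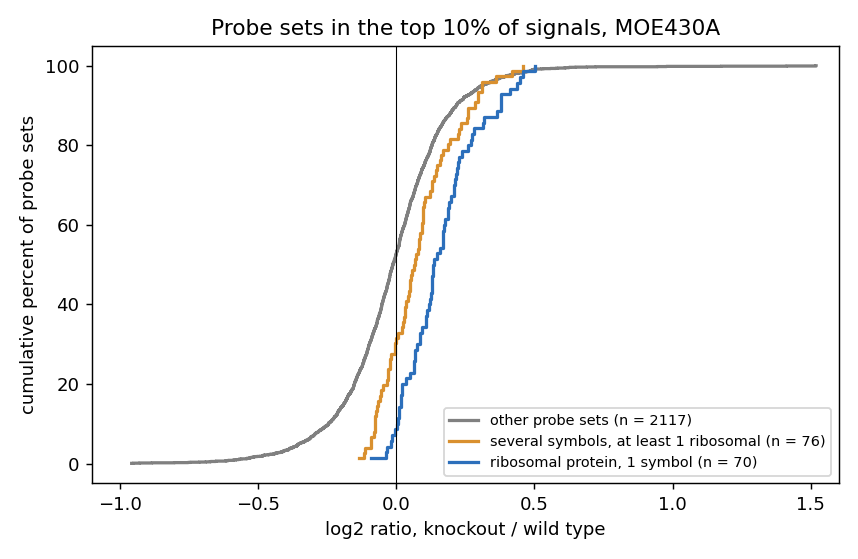
Cumulative percent of probe sets, on the vertical axis, at or below a log2 ratio of knockout over wild type, on the horizontal axis, among probe sets in the top 10% of signals on MOE430A. The curve of the 70 ribosomal protein probe sets with 1 symbol lies, over most of its length, to the right of that of the 2117 other probe sets, and the remaining curve shows 76 probe sets annotated to several symbols with a ribosomal name among them.

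Probe sets were then averaged per gene, over both designs and measured ones only. Of 46 measured member genes, 38 were higher and 8 lower in knockout neurospheres, with a median of 0.13, where 48.6% of all 10171 measured genes were higher, with a median of -0.01. The gene Rps27 alone was at least 1.5-fold higher, against 3.4% of all measured genes, and no member was 1.5-fold lower, against 3.89%. Large subunit genes had a median of 0.14, with 14 of 19 higher. Small subunit genes had a median of 0.12, with 18 of 20 higher. Without _x_at, _s_at and _a_at probe sets 16 genes were left, of which 12 were higher, with a median of 0.09. The gene median was 0.13 on MOE430A alone and 0.17 over the 4 genes measured on MOE430B. Those 4 were Rpl22, Rps3, Rpl7l1 and Rps19bp1, and Rpl7l1 and Rps19bp1 are not standard subunits.

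Most gene values were small beside the difference between repeat measurements. Of 100 probe sets that both designs carry, 99 were measured on both, and the ratio of the same RNA pair differed between designs with an SD of 0.31. This was 0.29 for the 39 in the top 10% of signals on both designs. None of the 100 was a member, and the designs were hybridised on different days, so this SD also spans days. Of the 46 gene values, 4 lay farther from 0 than 0.31, those of Rps27, Rps24, Rpl22 and Rpl37, all higher in knockout neurospheres; 28.2% of all measured genes lay that far. Divided by the square root of 2, which takes both designs as equally variable, the SD for a single probe set ratio was 0.22. Over all measured probe sets the SD of ratios was 0.29 on MOE430A and 0.43 on MOE430B, and a gene value can average several probe sets. Of the gene values 10 lay farther from 0 than 0.22, 9 of them higher and 1, of Rpl12, lower, against 42.6% of all measured genes. Between measured probe sets of a member gene the pooled SD was 0.18. Of 20 genes with more than 1 measured probe set, 14 had all of them higher in knockout neurospheres. None had all lower and 6 had values on both sides of 0. The same count over all measured genes was not made, so these counts have no background to be read against.

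**Figure D3:**
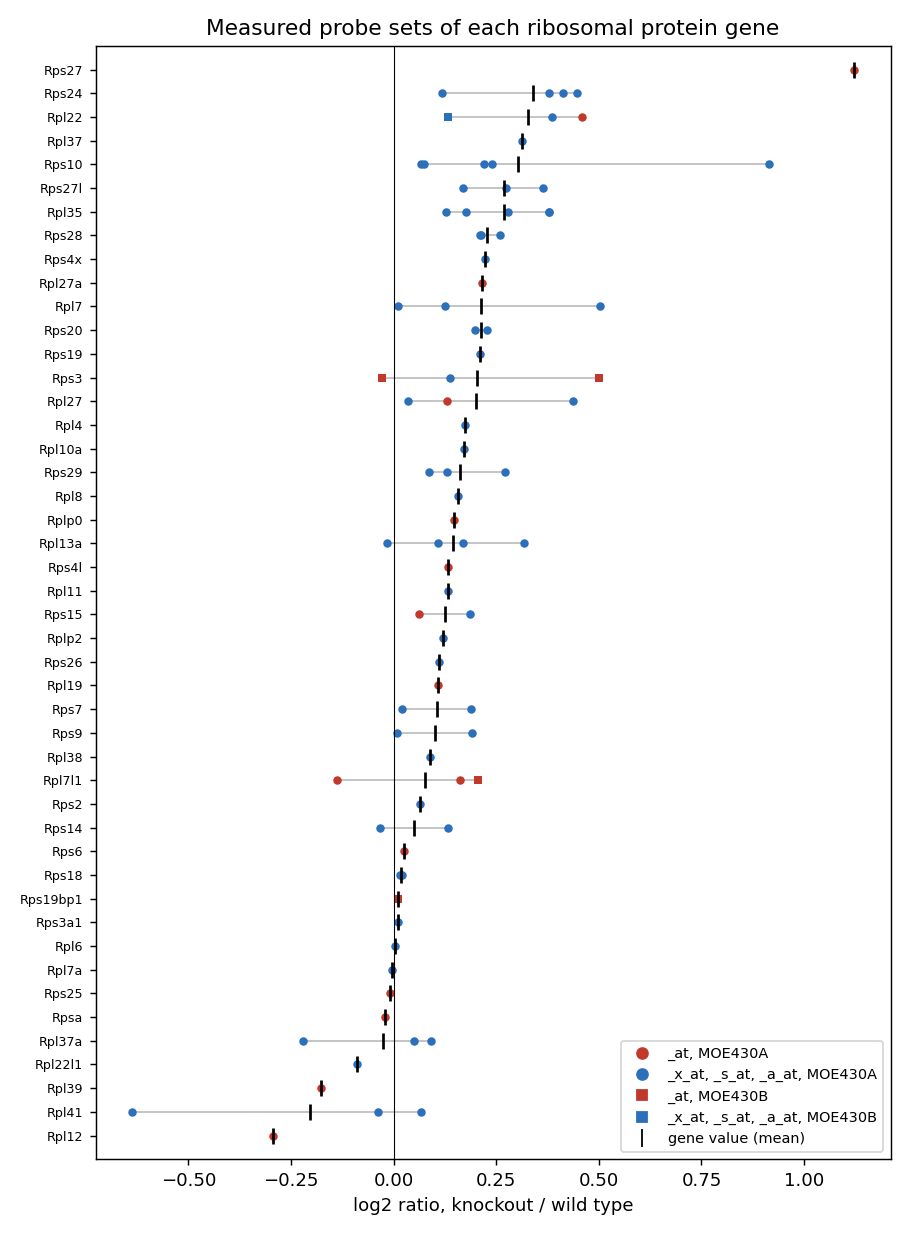
Log2 ratio of knockout over wild type for every measured probe set of the 46 measured ribosomal protein genes, ordered by gene value; circles are MOE430A and squares MOE430B, red _at and blue _x_at, _s_at and _a_at probe sets, black ticks the mean of a gene and grey lines its range. Of the ticks, 34 lie between 0 and 0.31, Rps27 stands apart at 1.12 on 1 probe set, and Rps10, Rpl41, Rpl7 and Rps3 have wide ranges.

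In the large subunit, Rpl22, which encodes a non-essential protein with its own mRNA-binding role in lymphocyte development, had the highest value. Its 2 probe sets on MOE430A read 6489 and 3078 in wild-type and 8984 and 4046 in knockout neurospheres, and the 1 on MOE430B 76661 and 83859. All 3 were higher, by 0.46, 0.39 and 0.13, a mean of 0.33. Rpl37 had 1 probe set, at 6817 in wild-type and 8527 in knockout neurospheres, a log2 ratio of 0.31. Rpl35, whose protein sits near the exit of the peptide tunnel, had 5 measured probe sets, from 24520 to 53853 in wild-type and from 29960 to 59216 in knockout neurospheres, with ratios from 0.13 to 0.38 and a mean of 0.27. Rpl11, which is mutated in Diamond-Blackfan anaemia, read 22151 in wild-type and 24420 in knockout neurospheres, a ratio of 0.13.

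The 3 lowest members were also of the large subunit. Rpl12, at 942 in wild-type and 774 in knockout neurospheres, stood at -0.29, and its _at probe set lay just above the floor. Rpl41, which encodes a very short peptide, averaged -0.20 over probe sets that did not go one way. Its bright probe sets read 57190 and 152782 in wild-type and 60315 and 149842 in knockout neurospheres, ratios of 0.07 and -0.04, while a dim one read 1414 and 914, a ratio of -0.64. With the bright ones alone, in the top 10% of signals or above the 70th percentile, the value was 0.02. Rpl39, an X-linked gene, read 3313 and 2952, a ratio of -0.18.

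Rpl37a, Rpl7a and Rpl6 were close to 0. Rpl37a had a mean of -0.03 from 3 probe sets between -0.22 and 0.09, and its value was 0.09 with the brightest probe set and 0.07 in the top 10% of signals. Rpl7a read 98955 in wild-type and 99299 in knockout neurospheres, and Rpl6 47099 and 47543, ratios of -0.004 and 0.004; scaling turned both signs, to 0.01 for Rpl7a with centring on measured probe sets and to -0.06 for Rpl6 with quantile normalization. Rpl7, with a mean of 0.21, had 3 probe sets at 0.01, 0.13 and 0.50 that were annotated to the same gene. The spread among them was wider than the shift of the whole family. Rpl27a, chosen after its value was seen, stood at 0.22 on 1 measured probe set, and at -0.15 with no floor, where a probe set at 135 and 95 entered.

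Of the stalk genes, Rplp0, which encodes the scaffold of the stalk, read 48488 in wild-type and 54038 in knockout neurospheres. Rplp2, which encodes one of the acidic proteins bound to it, read 48911 and 53512. Their ratios were 0.15 and 0.12, both close to the family's median. Rplp1 was not among the members.

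In the small subunit, Rps24 and Rps10, both mutated in Diamond-Blackfan anaemia, followed Rps27. The 4 measured probe sets of Rps24, all _x_at, read 8163, 16966, 17377 and 38070 in wild-type and 10941, 23292, 22723 and 41593 in knockout neurospheres. Each was higher, with ratios from 0.12 to 0.45 and a mean of 0.34. An _at probe set of Rps24 went the other way, at 986 in wild-type and 355, below the floor, in knockout neurospheres, so at least 1.34-fold lower there. With the floor at the 30th percentile or none it entered the mean, which was then -0.03 or -0.05. The value of Rps24 therefore depended on which probe sets were kept.

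Rps10 had 5 measured probe sets. A dim one read 2470 in wild-type and 4688 in knockout neurospheres, a ratio of 0.92, and the others, from 31935 to 55157 in wild-type and from 37947 to 58169 in knockout neurospheres, had ratios from 0.07 to 0.24. All 5 were higher, and the mean was 0.30; without the dim one, in the top 10% of signals, it was 0.15. Rps3, which also takes part in DNA repair, had 1 probe set on MOE430A at 55860 and 61844, a ratio of 0.14. Its 2 on MOE430B read 3820 and 4464 in wild-type and 5393 and 4368 in knockout neurospheres, ratios of 0.50 and -0.03. The probe sets of Rps3 thus lay on both sides of 0.

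Some bright genes had several measured probe sets with nearly the same ratio. Rps28 read 44243, 55255 and 62061 in wild-type and 53252, 64323 and 72352 in knockout neurospheres, ratios from 0.21 to 0.26. Rps20 had measured probe sets at 0.20 and 0.23, and further ones below the floor; its mean was 0.21, and 0.49 with the floor at the 30th percentile. Rps18 read 44780, 47030 and 53517 in wild-type and 45677, 47847 and 54548 in knockout neurospheres, and all 3 ratios were 0.02; they turned to -0.04 on average with quantile normalization. The other 3 probe sets of Rps18 were below the floor in both samples, with ratios of -1.03, -0.06 and 1.79. The bright probe sets of Rps18 and of Rps28 thus differed by less within a gene than between these genes; Rps18, Rps20, Rps28, Rps4x, Rpl35, Rpl6, Rpl7 and Rpl7a were chosen after their values were seen. Whether the probe sets of a gene share probes was not checked.

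Other small subunit genes with a known role lay closer to 0 than Rps24 and Rps10. Rps19, the first gene found mutated in Diamond-Blackfan anaemia, read 23356 in wild-type and 27204 in knockout neurospheres, a ratio of 0.21. Rps26 read 41094 and 44643, a ratio of 0.11, and Rps7 had 2 probe sets at 0.02 and 0.19. Rps6, the substrate of S6 kinase in growth signalling, read 1710 and 1751, a ratio of 0.03 that turned to -0.03 without a floor and -0.003 under a pseudocount. Rpsa, which encodes a ribosomal protein also known as a laminin receptor, read 63644 and 63158, a ratio of -0.02 that was 0.33 with no floor, where a probe set at 18 and 29 entered. Rpl5, Rpl10, Rpl23, Rpl26, Rpl35a and Rps27a had no single-symbol probe set.

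Rps27 had the highest value of the family, and it rested on 1 dim probe set. That _at probe set read 1444 in wild-type and 3164 in knockout neurospheres, a ratio of 1.12 or 2.18-fold. A bright probe set that lists both Rps27 and its retrogene Rps27rt, carried by both designs and not assigned to either gene, read 70346 in wild-type and 66400 in knockout neurospheres on MOE430A. On MOE430B it read 170731 and 182669. Its ratios were -0.09 and 0.10, on both sides of 0, so the 2-fold difference was not seen there.

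Paralogs and look-alikes match the symbol pattern but are not standard subunits. Rps27l, a paralog of Rps27 that p53 activates, had 3 probe sets at 5545, 6099 and 9724 in wild-type and 6274, 7897 and 11833 in knockout neurospheres. All 3 were higher, by 0.17 to 0.36, with a mean of 0.27. Rpl22l1, the paralog of Rpl22, read 7777 and 7353, a ratio of -0.09, on the other side of 0 from Rpl22. Rpl7l1 had 3 probe sets at 0.16, -0.14 and 0.21, and the last is on MOE430B. Its mean was 0.08, and -0.14 with the brightest probe set.

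Rps19bp1, which encodes a protein that binds RPS19, read 4702 and 4727, a ratio of 0.01. Rps4l, an annotated transcribed pseudogene, read 1957 and 2158, a ratio of 0.13. Rpl3l, a muscle form of Rpl3, and Rpl39l, a testis form of Rpl39, were below the floor in both samples. Rpl3l read 58 in wild-type and 102 in knockout neurospheres, and Rpl39l 182 and 165. The 5 measured genes of this kind had a median of 0.08, with 4 higher, and without them the family's median was 0.13 with 34 of 41 genes higher.

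The members lie on 17 chromosomes. Of the 2 measured X-linked members, Rps4x read 44526 in wild-type and 52297 in knockout neurospheres, a ratio of 0.22, and Rpl39 stood at -0.18. With no floor, where a probe set at 109 and 79 entered, Rps4x was at -0.12.

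Other translation genes had list medians from -0.06 to 0.07, against 0.13 for the ribosomal protein genes, and the difference was not tested. Fau, which encodes a small subunit protein under another name, read 47073 in wild-type and 48617 in knockout neurospheres, a ratio of 0.04 that was -0.02 after quantile normalization. Of 7 measured genes of elongation 6 were higher, beside the 48.6% of all genes given above, with a median of 0.06. Eef1a1, the main elongation factor, was at 0.07, Tpt1, whose mRNA is also of the oligopyrimidine class, at 0.16, Eif5a at 0.10, and Eef1e1, a part of the tRNA synthetase complex, at -0.32. Of 24 genes of initiation and poly(A) binding 14 were higher, or 58.3%, with a median of 0.07, and Eif3b stood at 0.40. Eif5b had a mean of 0.54 from probe sets at -0.16 and 1.23. The latter read 740, just above the floor, in wild-type and 1750 in knockout neurospheres. A further Eif5b probe set, at 215 and 53, was below the floor in both samples. Eif2s3x, an X-linked subunit of the factor that delivers the initiator tRNA, was at -0.33. Eif4g2 was at 0.23.

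Genes that build ribosomes showed a wide spread around a small median. Of 64 measured biogenesis genes 35 were higher, or 54.7%, against 48.6% of all measured genes. Their median was 0.07 and their range -0.80 to 0.66, and on MOE430B alone the median was -0.04. Gnl3l, a nucleolar GTPase, was at -0.80, and Pes1, which acts in large subunit assembly, at 0.60 on 1 of its 2 probe sets. The other went the opposite way, from 866 above the floor in wild-type to 462 below it in knockout neurospheres. Noc2l had a mean of 0.66 from probe sets at -0.03 and 1.35, and Las1l one of 0.52 from 0.11 and 0.92. Of 9 genes of RNA polymerase I, which makes ribosomal RNA, 4 were higher, or 44.4%. Their median of -0.06 turned to 0.013 without a floor and 0.0050 under a pseudocount. Polr1a was at 0.44 on 1 of 5 probe sets, and another went the opposite way, from 952 above the floor to 233 below it. Taf1d was at 0.33 on 1 of 7 probe sets, Ubtf at -0.24, and Polr1d at -0.23 from 4 probe sets between -0.45 and 0.23.

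Of 19 genes that control ribosomal protein mRNAs or respond to ribosomal stress, 7 were higher, or 36.8%, against 48.6% of all measured genes. Their median was -0.06, but 0.04 on MOE430B alone and 0.0038 in the top 10% of signals. Rps6kb2, an S6 kinase, stood at -0.82 on 1 probe set. That probe set read 1473 in wild-type and 838, near the floor, in knockout neurospheres. The TORC1 subunit Rptor was at 0.49 from a bright probe set at 0.16 and a dim one at 0.81. The p53 target Cdkn1a was at -0.44 on 1 of 2 probe sets, and the other, at 45 and 103, was below the floor. Mycl was at -0.30. Mitochondrial ribosomal proteins, made in the cytosol for the organelle's own ribosome, had 40 of 73 measured genes higher, or 54.8%. Their median was 0.03 and their range -1.12 to 0.60. The median was -0.06 with no floor, -0.0027 with a pseudocount and -0.02 on MOE430B alone, and in the top 10% of signals it was 0.0012 over 11 genes.

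**Figure D4:**
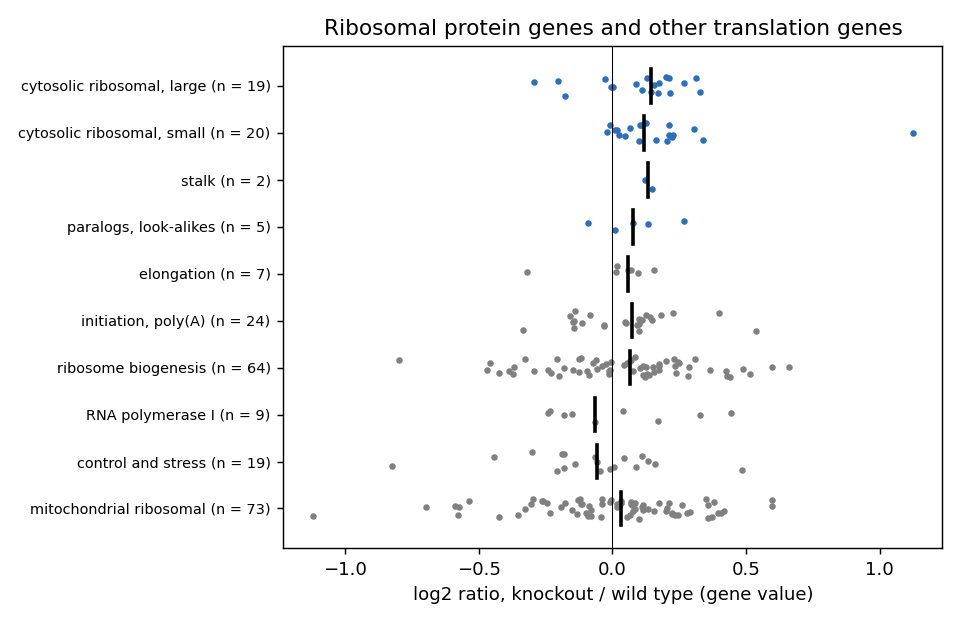
Gene values, as log2 ratio of knockout over wild type, for cytosolic ribosomal protein genes by class in blue and for other translation lists in grey; each point is a gene, points are spread vertically for view, and black bars are medians. The large, small and stalk classes have medians from 0.12 to 0.14, with Rps27 apart at 1.12, and paralogs and look-alikes a median of 0.08. Biogenesis genes spread from -0.80 to 0.66 and mitochondrial ribosomal protein genes from -1.12 to 0.60.

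Values of the whole series bear on these results. Trimmed by 2% at each end, the mean signal of each array was about 1500, and wild-type and knockout medians were 734.6 and 736 on MOE430A and 941 and 942 on MOE430B. Gapdh 3′ over 5′ signal, a measure of RNA integrity, was 0.862 in wild-type and 0.898 in knockout neurospheres on MOE430A, and 0.948 and 0.799 on MOE430B. The arrays of a design were hybridised on 1 day, and the designs on different days. All 8 neural stem cell markers and all 10 neuron markers were measured. Among all measured genes 48.6% were higher in knockout neurospheres. Of the stem cell markers 6 were higher in knockout neurospheres, with a median of 0.05 and a summed MOE430A signal of 143489 in wild-type and 152170 in knockout neurospheres. Of the neuron markers 9 were lower, with a median of -0.23 and a summed signal of 137024 and 121070.

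All 6 ventral telencephalon markers on the arrays were lower, with a median of -0.54, while 48.6% of all measured genes were higher. Red blood cell markers, 5 of 7 measured, had 4 lower and a median of -0.34, with a summed signal of 282081 and 217432. Most of that sum came from the 3 probe sets of the embryonic globin Hbb-y. They read 89828, 84189 and 59541 in wild-type and 69939, 68394 and 47498 in knockout neurospheres. The source of this bright globin signal in cultures of neural progenitors was not tested. Of 8 microglia markers 2 were measured, both lower, and of 7 endothelium markers 3 were, with 2 higher. The part of these markers in the ribosomal protein values was not tested. In bulk samples, fewer cells of a type and less RNA per cell cannot be told apart.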

How the data were processed

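The deposited values are MAS5 signal intensities on a linear scale, 1 per probe set and array, made with MAS5 per the submitters' processing notes, which name no version. Each array had a trimmed mean of about 1500, and detection calls were not used here. The instrument records deposited by the authors were read only for chip type and day, with no measurement taken from them. Log2 ratios of the deposited intensities were computed within each design, without the 64 control probe sets, and centred by 0.01 on MOE430A and -0.004 on MOE430B. Symbols came from the platform annotation, and none changed when looked up by gene identifier in RefSeq (GRCm38.p6), which held the identifiers of all 106 member probe sets. On MOE430A 20380 probe sets had 1 symbol, 691 several and 1555 none, and on MOE430B 14661, 245 and 7605. The members, gene lists and cut-offs were chosen with earlier results of these data known. Named members were those at least 1.5-fold different, the 6 highest and 6 lowest, paralogs, stalk genes, genes with a known role and genes with discordant probe sets; of other lists, the 4 farthest from 0. The number of arrays limits the precision. Alternatives were other floors, a pseudocount equal to the floor, other scalings, other probe set choices and each design alone; centring on measured probe sets and the cuts at the top 10% and 1% of signals were added after the data were seen. The calculation was tested on simulated arrays, with shifts put only into genes with a probe set well above the floor. The pseudocount setting was left out of that check. Tables were made with pandas 2.3.3 and numpy 2.4.6 in Python 3.11.15, the lowess correction with statsmodels 0.14.6, and plots with matplotlib 3.10.9. Protein sequences of paralogs were not used here.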

Additional observations from a re-analysis of the deposited data

Results flagged for a closer look

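Probe sets annotated to several symbols, at least 1 of them a ribosomal protein, entered no gene value, and most of them were also brighter in knockout than in wild-type neurospheres. On MOE430A 86 of 102 were measured, 57 of them were higher (66.3%, against 47.9% of all measured probe sets) and the median log2 ratio was 0.062. Of the 10 _at probe sets among them 5 were higher (median 0.01), and of the 76 others 52 were (median 0.07). In the top 1% of signals 34 of 53 were higher, or 64.2%, against 56.0% of other probe sets. On MOE430B 7 of 10 were measured, all 7 were higher, against 50.2% of all measured probe sets there, and the median was 0.29, from 0.10 to 0.40. Both designs carry 2 of these probe sets. The one that lists Rps27 and Rps27rt was at -0.09 on MOE430A and 0.10 on MOE430B. The one that lists Rpl23 among 3 symbols read 59864 in wild-type and 69004 in knockout neurospheres on MOE430A, a ratio of 0.20, and 162289 and 200590 on MOE430B, a ratio of 0.31.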

How the results depend on the processing

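The median of ribosomal protein genes stayed between 0.09 and 0.17 in all 15 alternatives, and those of the MOE430A probe sets between 0.04 and 0.12 for _at and between 0.11 and 0.15 for the others. With fewer genes measured, the count higher was 12 of 16 on _at probe sets alone and 4 of 4 on MOE430B alone. Those on MOE430B were Rpl22, Rps3 and the look-alikes Rpl7l1 and Rps19bp1. After quantile normalization the 1 _s_at probe set on MOE430B was at -0.059, and Fau, alone in its list, at -0.021. On MOE430B alone the medians were 0.36 for elongation (1 gene), -0.038 for biogenesis, 0.044 for control and stress, and -0.021 for mitochondrial ribosomal proteins. With no floor they were 0.013 for RNA polymerase I and -0.060 for mitochondrial ribosomal proteins, and with a pseudocount 0.0050 and -0.0027. In the top 10% of signals they were -0.24 for RNA polymerase I (3 genes) and 0.0038 for control and stress. Among the 46 measured member genes, Rpl27a, Rps24, Rps4x and Rpsa moved by more than the SD between designs and changed sign with no floor, and Rps24 also at the lower floor. For these genes, probe sets that had not counted as measured then entered the mean. The causes of the other changes were not tested. No paired analysis was possible because each genotype had 1 sample, and none could be left out.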
